A study of Mus musculus with 22 samples.

Results

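The 10 genes described here carry tryptophan along the kynurenine route to NAD, or remove nicotinamide at its end: Tdo2, Ido2, Afmid, Kmo, Kynu, Haao, Acmsd, Qprt, Nadsyn1 and Nnmt. They were taken by symbol from the deposited table of liver RNA, 10 of 23909 gene symbols, and all 10 were among the 12264 genes tested. The 22 libraries came from livers of male C57BL/6 mice that the labels call fasted, in 5 groups. GF_TAC (n = 5) and GF_JAX (n = 5) were germ-free recipients given cecal contents of TAC or JAX donors and killed 4 weeks later following a 16 h fast. GF (n = 4) were germ-free mice without a transfer, and TAC (n = 4) and JAX (n = 4) were mice bought from Taconic or Jackson. Age, sub-strain and the hours of fasting in the last 3 groups are not given in the sources used here, nor is the number of donors, so vendor mice may differ in more than their microbes.

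In the liver, Tdo2 (tryptophan 2,3-dioxygenase) opens the tryptophan ring, and Afmid turns the product into kynurenine. Kmo, Kynu and Haao carry kynurenine on to an unstable semialdehyde that either closes to quinolinate, which Qprt turns into the first nucleotide of the NAD route, or is decarboxylated by Acmsd and lost to NAD. Nadsyn1 makes the last step to NAD, and Nnmt methylates the nicotinamide that NAD-consuming enzymes release.

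Promoter sequences are shown for 4 genes on which the results turn: Tdo2, the entry enzyme, Haao, which holds the most of the motifs searched, and Kmo and Nadsyn1, whose donor differences ran in opposite directions. Each is the 250 bases before the annotated gene start, 5′ to 3′ on the gene's own strand, from RefSeq on GRCm38.p6. Capitals mark motif matches.
Tdo2 (chr3:81975729-81975978, minus strand): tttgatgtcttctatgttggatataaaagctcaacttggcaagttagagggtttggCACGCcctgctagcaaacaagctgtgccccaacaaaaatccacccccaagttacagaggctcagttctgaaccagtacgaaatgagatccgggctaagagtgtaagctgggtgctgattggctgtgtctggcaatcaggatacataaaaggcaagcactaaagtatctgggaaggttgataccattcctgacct
Kmo (chr1:175631943-175632192, plus strand): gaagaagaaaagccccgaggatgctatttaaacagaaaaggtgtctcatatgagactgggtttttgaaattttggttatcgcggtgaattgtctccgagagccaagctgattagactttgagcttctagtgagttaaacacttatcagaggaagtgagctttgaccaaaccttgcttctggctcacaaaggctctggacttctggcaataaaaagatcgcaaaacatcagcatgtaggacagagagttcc
Haao (chr17:83846791-83847040, minus strand): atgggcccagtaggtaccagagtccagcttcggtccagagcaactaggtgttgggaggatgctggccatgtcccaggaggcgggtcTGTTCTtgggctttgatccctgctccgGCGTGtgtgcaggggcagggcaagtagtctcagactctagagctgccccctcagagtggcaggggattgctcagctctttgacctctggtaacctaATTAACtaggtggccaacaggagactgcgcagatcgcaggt
Nadsyn1 (chr7:143822853-143823102, minus strand): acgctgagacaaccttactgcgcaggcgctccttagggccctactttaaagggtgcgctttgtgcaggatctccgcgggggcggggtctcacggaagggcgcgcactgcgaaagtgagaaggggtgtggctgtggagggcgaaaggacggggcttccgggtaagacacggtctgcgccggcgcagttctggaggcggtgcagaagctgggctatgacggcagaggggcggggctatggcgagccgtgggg
The RefSeq table held promoters of 7 of the 10 genes, the others being Ido2, Kynu and Nnmt. On either strand, 5 motifs were searched in the 7 promoters: AGAACA (glucocorticoid receptor half-site), GTTAAT (HNF1 half-site), TTGCNNAA (C/EBP), CAAAGTCCA (HNF4) and GCGTG (core of the AHR element). Haao held the glucocorticoid receptor half-site, the HNF1 half-site and the AHR core once each, Tdo2 held the AHR core once, and the other 5 promoters held no match in this window. No match overlapped another. Of 32851 promoters of this length, 16.1% held the glucocorticoid receptor half-site, 6.43% the HNF1 half-site, 9.56% the C/EBP motif, 0.384% the HNF4 motif and 28.2% the AHR core. The promoters also differed in base composition: Nadsyn1 had 66% G and C with 23 CG pairs, Kmo 42.8% with 5 and Acmsd 43.2% with 1, beside a median of 52.4% and 6 CG pairs over all promoters.

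The authors deposited RPKM, that is reads counted on a gene, scaled to its length and to library depth. The recovered depth was 1.36 to 3.82 M counted reads per library, with a mean of 2.59 M in GF_TAC, 1.81 in GF_JAX, 2.35 in GF, 2.20 in TAC and 3.03 in JAX. Libraries fell into 2 types by their length slope, the slope of log2 RPKM (each gene relative to its mean over the 22 libraries) on log2 transcript length. It was above 0 in 10 libraries (all TAC, all JAX, GF_JAX 1 and GF_JAX 4) and below 0 in the other 12, so germ-free origin and library type cannot be told apart, except in part in GF_JAX. Hepatocyte markers were high in every library, with a summed level of 2282 to 5156 RPKM over 7 genes, and summed levels of T and NK cell markers were at most 8.14 RPKM. In bulk RNA, fewer cells of a type and less RNA per cell cannot be told apart. The labels do not say that libraries came from separate animals, and the spread that p-values measure may be technical in part.

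RNA of all 10 genes was found in every library. Averaged over the 22 libraries, Tdo2 had 498 RPKM, Haao 459, Nnmt 335, Qprt 221, Kmo 154, Afmid 149, Kynu 128, Ido2 42.6, Nadsyn1 23.5 and Acmsd 15.5 RPKM. Only 170 of the 12264 tested genes had a higher mean than Tdo2, against 5754 for Acmsd. Acmsd also varied most, 10.02-fold between its lowest and highest library, where the other 9 genes varied 1.51-fold (Kmo) to 2.80-fold (Nnmt). Ido1, the tryptophan dioxygenase best known outside the liver, was listed at 0 in all 22 libraries.

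**Figure D1:**
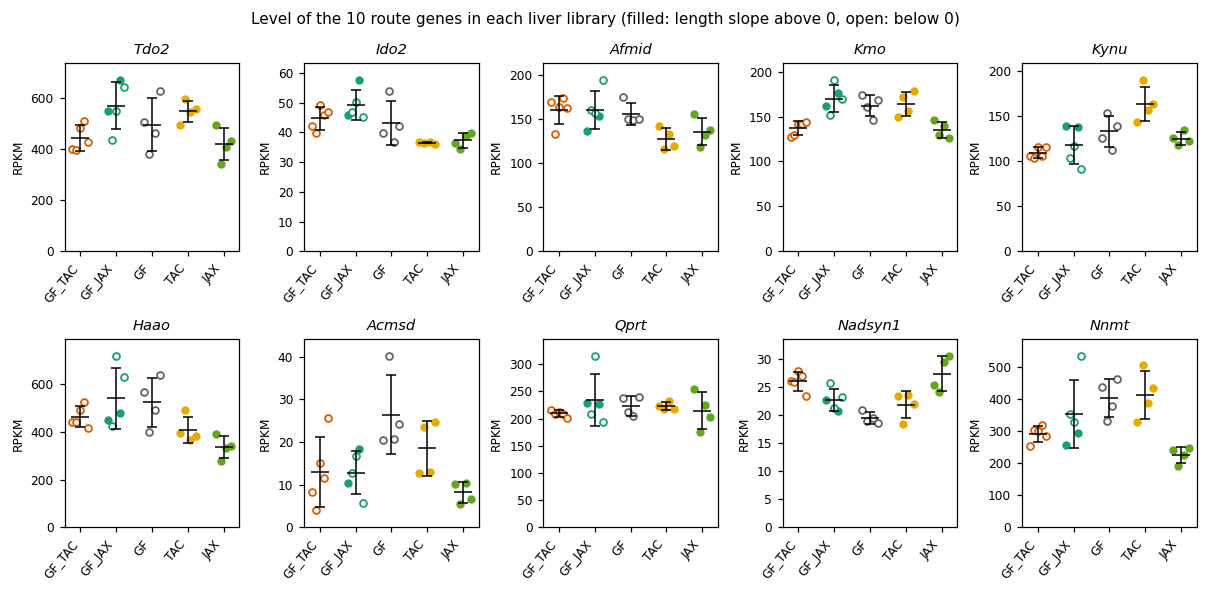
Level of each gene (y axis, RPKM) in every library by group, with the mean and SD in black; filled points are libraries with a length slope above 0 and open points those below 0. Nnmt lies at 327 to 504 RPKM in the 4 TAC libraries and at 189.8 to 246 RPKM in the 4 JAX libraries, and Acmsd lies at 20.6 to 40.1 RPKM in the 4 GF libraries.

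Within the vendor mice, 1 of the 10 genes passed, Nnmt, which was higher in TAC (limma, adjusted p under 0.05). Over all genes 0.294% passed. Tdo2, Kmo, Kynu, Acmsd, Nadsyn1 and Nnmt had an unadjusted p under 0.05 there (8.99% of all genes). In recipients 0 of 10 passed in GF_TAC against GF_JAX (0.171% of all genes), where Tdo2, Kmo and Nadsyn1 had an unadjusted p under 0.05 (13.3% of all genes). Colonisation changed none of the 10 past the threshold, in GF_JAX against GF (0.612% of all genes) or in GF_TAC against GF (0.204%), where 2 and 5 genes had an unadjusted p under 0.05 (15.9% and 8.49% of all genes). Against vendor mice, 5 genes passed in GF minus JAX (24% of all genes), 0 in GF minus TAC (24.3%), where 4 had an unadjusted p under 0.05 (39.5%), 5 in GF_JAX minus JAX (13.4%), all higher (7.37% of all genes), and 6 in GF_TAC minus TAC (23.8%). The donor interaction, which is the GF_TAC minus GF_JAX difference less the TAC minus JAX difference, passed for 3 of 10 genes and for 1.48% of all genes. GF_JAX 2, 3 and 5 are the GF_JAX libraries with a length slope below 0. Without them, 3033 of 12146 genes passed in GF_TAC minus GF_JAX (21 with all libraries), Kmo and Kynu among them. In GF_JAX minus GF 3453 passed (75), with Nnmt, and in the interaction 2566 (182), with 5 of the 10 genes. That setting sets GF_JAX 1 and GF_JAX 4, with slopes above 0, against GF_TAC and GF, with slopes all below 0. Donor or colonisation and library type cannot be told apart there. Several of these 9 comparisons share libraries, so their values stand side by side below and are not independent.

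**Figure D2:**
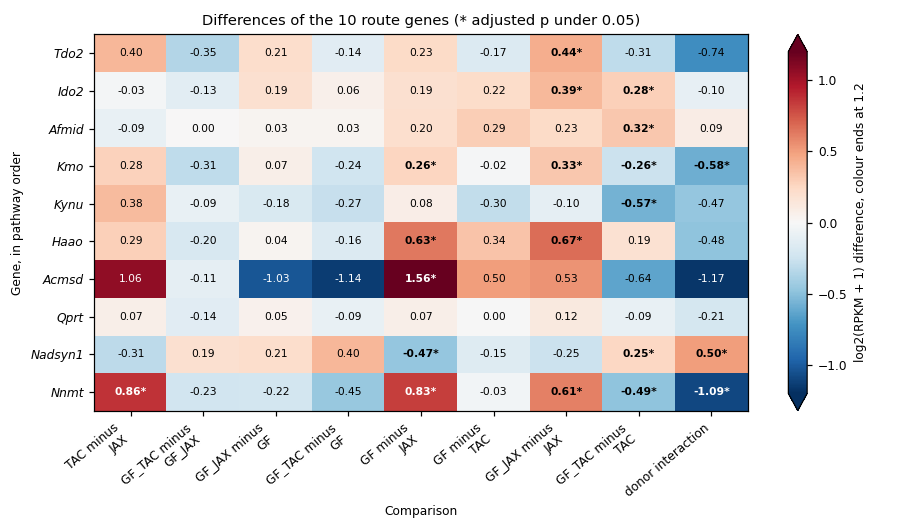
Differences of the 10 genes (rows, in pathway order) in 9 comparisons (columns), as log2(RPKM + 1) from the limma fit, first group minus second; bold values with an asterisk passed an adjusted p of 0.05. Acmsd in GF minus JAX (1.56) and Nnmt in the donor interaction (-1.09) are at the ends of the range among the values that passed, and Qprt passed in none.

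The direction of the route genes between TAC and JAX differed with the setting. In recipients 2 of 10 genes had a higher mean in GF_TAC than in GF_JAX, with a median difference of -0.13, beside 0.01 over all genes. In vendor mice 7 of 10 had a higher mean in TAC than in JAX, with a median of 0.28, beside 0.00 over all genes. Libraries did not overlap in 1 of 10 genes in recipients, Kmo (1.81% of all genes), and in 6 of 10 in vendor mice (8.22%). In the comparisons with germ-free mice or across library types, libraries did not overlap in 1 of 10 genes in GF_JAX minus GF (2.7% of all genes), 3 in GF_TAC minus GF (3.79%), 5 in GF minus JAX (27.9%), 1 in GF minus TAC (25.8%), 4 in GF_JAX minus JAX (10.9%) and 5 in GF_TAC minus TAC (26.5%). The donor interaction was below 0 in 8 of 10 genes, with a median of -0.47, beside 0.02 over all genes. Differences of groups are given on the log2(RPKM + 1) scale, which understates changes of low genes, with the standard error of the fit.

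**Figure D3:**
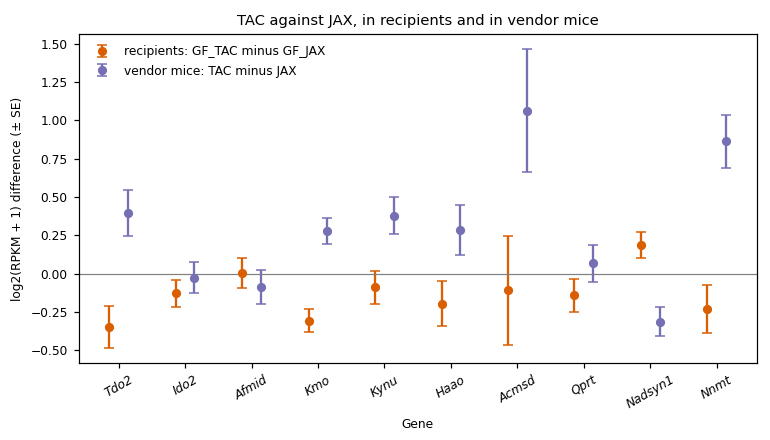
Difference of each gene between TAC and JAX on the log2(RPKM + 1) scale with its standard error, in recipients (orange, GF_TAC minus GF_JAX) and in vendor mice (purple, TAC minus JAX). Nnmt, Kmo and Nadsyn1 are the genes whose paired points differ past the threshold.

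Mean depth was 2.59 M reads in GF_TAC and 1.81 in GF_JAX, but 2.20 in TAC and 3.03 in JAX, so depth ran opposite ways in the 2 settings. Alb, the albumin gene, had a difference of -0.53 in GF_TAC minus GF_JAX and 0.43 in TAC minus JAX, and neither passed. The 7 hepatocyte markers, Alb among them, had differences below 0 in GF_TAC minus GF_JAX in 7 of 7 and above 0 in TAC minus JAX in 7 of 7, with a median of -0.92 in the interaction. Of the lists described below, the tryptophan side branches were above 0 in 1 of 10 genes in recipients and in 9 of 10 in vendor mice, and nicotinamide disposal in 1 of 6 and in 6 of 6. The difference of these lists from the route was not tested. In GF_JAX minus JAX 5 of the 7 hepatocyte markers passed, all higher (Alb, Apoa1, Ttr, Serpina1c and Tat; 13.4% of all genes), and in GF_TAC minus TAC 3 passed, all lower (Hnf4a, Cps1 and Tat; 23.8%). Of these markers, Alb and Apoa1 had reads per kilobase that varied by only 2.13% and 1.93% (coefficient of variation over the 22 libraries). Their RPKM, which is scaled to depth, varied by 29.0% and 29.6%. The part of hepatocyte RNA as a whole in the differences of the route was not tested. With depth as a covariate the interaction passed for none of the 10 genes, and with the start-position correction it held for Kmo and Nnmt.

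Of the enzymes that open the ring, Tdo2 was the most abundant gene of the route. Tdo2 had 403, 397, 486, 513 and 429.6 RPKM in GF_TAC and 549, 439, 549, 672 and 646 RPKM in GF_JAX. It had 508, 382, 466 and 630.5 RPKM in GF, 497, 597, 546 and 559.98 RPKM in TAC and 494, 342, 411 and 433 RPKM in JAX. The GF_TAC libraries lay in the lower part of the range, GF_JAX reached the highest values, and the 4 TAC libraries were all above the 4 JAX libraries. Tdo2 was higher in GF_JAX than in JAX, with 571 ± 92.6 RPKM in GF_JAX and 420.02 ± 62.9 RPKM in JAX (SD, n = 5 and 4), a difference of 0.44 ± 0.14 (limma, adjusted p = 0.0465). That call was lost without any one of 16 libraries, with an adjusted p of up to 0.156 (without JAX 2); it was kept without JAX 1, GF 2, GF 4, GF_JAX 1, GF_JAX 2 or GF_TAC 4. The difference was 0.02 with depth as a covariate (adjusted p = 0.95) and 0.27 with the start-position correction. Both lost the call, as did no filter, TPM scaling and the length slope. It was also lost without GF_JAX 1 and GF_JAX 4, and without GF_JAX 2, 3 and 5. The donor difference of Tdo2 was -0.35 ± 0.14 in recipients and 0.40 ± 0.15 in vendor mice, an interaction of -0.74 ± 0.20 that did not pass (adjusted p = 0.0677). It was -0.20 with depth as a covariate and passed with TPM scaling (-0.56, adjusted p = 0.0395), with the length slope (-0.77, adjusted p = 0.0347), with the replicate block (adjusted p = 0.043) and without GF_JAX 2, 3 and 5 (-0.85, adjusted p = 0.0123). In the last setting donor and library type cannot be told apart in the recipients.

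Ido2, a dioxygenase of low activity on tryptophan, was far less abundant than Tdo2 and was higher in each recipient group than in its vendor group. Its level ranged over 39.7 to 49.3 RPKM in GF_TAC, 45.1 to 57.6 in GF_JAX, 36.8 to 53.9 in GF, 36.2 to 36.9 in TAC and 34.3 to 39.9 in JAX. Neither recipient group overlapped with its vendor group. The difference was 0.28 ± 0.10 in GF_TAC minus TAC (limma, adjusted p = 0.0382) and 0.39 ± 0.10 in GF_JAX minus JAX (adjusted p = 0.0127). The first was lost without any 1 TAC library or without GF_TAC 3, 4 or 5 (adjusted p up to 0.0923), with the replicate block (0.0663), with the length slope (0.0592) and with TPM scaling (0.191). The second kept its call without each library in turn and was lost with TPM scaling (0.344) and with depth as a covariate (0.0871).

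Afmid, the formamidase that releases kynurenine, ran between 132 to 173 RPKM in GF_TAC, 136 to 194 in GF_JAX, 149 to 174 in GF, 116 to 142 in TAC and 119 to 155 in JAX. It was higher in GF_TAC than in TAC by 0.32 ± 0.10 (limma, adjusted p = 0.0287), although GF_TAC 2, at 132 RPKM, lay within the TAC range. The call was lost without TAC 2, TAC 4, GF_TAC 1, GF_TAC 3 or GF_TAC 4 (adjusted p up to 0.0862), with the length slope as a covariate (0.17, adjusted p = 0.391), with TPM scaling (0.0555) and with the replicate block (0.0525). GF libraries were all above TAC libraries, by 0.29 ± 0.11, which did not pass (adjusted p = 0.0561). Afmid overlaps Tk1 in the RefSeq annotation, and since no source states that counting used strand, its values may hold reads of Tk1.

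Kmo, which hydroxylates kynurenine, differed between donors without overlap in both settings. Kmo had 127, 129.96, 142, 141 and 144 RPKM in GF_TAC and 162, 152, 190.5, 176 and 169.9 RPKM in GF_JAX. It had 173, 160.2, 146 and 169 RPKM in GF, 149.5, 172, 156 and 179 RPKM in TAC and 146, 129, 139.8 and 126 RPKM in JAX. Every GF_TAC library was below every GF_JAX library, and every TAC library was above every JAX library. The difference was -0.31 ± 0.07 in GF_TAC minus GF_JAX (limma, adjusted p = 0.102) and 0.28 ± 0.08 in TAC minus JAX (adjusted p = 0.251), and neither passed. Their difference, the interaction, was -0.58 ± 0.11 and passed (adjusted p = 0.00949); it kept its call without each library in turn, but not with depth as a covariate (-0.41, adjusted p = 0.0768) or with TPM scaling (-0.41, adjusted p = 0.0508).

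Against the vendor mice Kmo was higher in GF_JAX than in JAX, 0.33 ± 0.08 (limma, adjusted p = 0.0109), higher in GF than in JAX, 0.26 ± 0.08 (adjusted p = 0.031), and lower in GF_TAC than in TAC, -0.26 ± 0.08 (adjusted p = 0.0252). Without GF 1, GF 4, JAX 2 or JAX 4 the GF minus JAX call was lost (adjusted p up to 0.0969), and it was also lost with the length slope, with depth and with TPM scaling, where the difference was 0.05. The GF_JAX minus JAX call was lost without JAX 4 (limma, adjusted p = 0.051). It was also lost with depth as a covariate, where the difference was 0.20, and with TPM scaling, where it was 0.11. The GF_TAC minus TAC call was lost without GF_TAC 1, GF_TAC 2, TAC 2 or TAC 4 (adjusted p up to 0.0929) and with the length slope (0.0521).

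Kynu, the kynureninase, was lowest in GF_TAC and highest in TAC. Kynu had 105, 103, 115, 106 and 116 RPKM in GF_TAC and 139, 104, 116, 137 and 91.04 RPKM in GF_JAX. It had 126, 153, 113 and 139 RPKM in GF, 144, 189, 156 and 163 RPKM in TAC and 125, 117, 134 and 123 RPKM in JAX. All 5 GF_TAC libraries were below all 4 TAC libraries, and all TAC libraries were above all JAX libraries. The GF_TAC minus TAC difference was -0.57 ± 0.11 (limma, adjusted p = 0.00226), a 0.673-fold level, which kept its call without each library in turn and was -0.38 with the length slope as a covariate (adjusted p = 0.0835). TAC minus JAX was 0.38 ± 0.12 and did not pass (adjusted p = 0.283).

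Haao, the dioxygenase that makes the semialdehyde at the branch, had its lowest mean in JAX. Haao had 444, 444, 492, 526 and 416 RPKM in GF_TAC and 450.5, 426, 718, 482 and 630.02 RPKM in GF_JAX. It had 569.5, 398, 493 and 638 RPKM in GF, 395, 491, 368 and 383 RPKM in TAC and 391, 279, 333 and 341 RPKM in JAX. All GF and GF_JAX libraries were above all JAX libraries, and GF_JAX spread most. Haao was higher in GF than in JAX by 0.63 ± 0.16, a 1.55-fold level (limma, adjusted p = 0.0112), and higher in GF_JAX than in JAX by 0.67 ± 0.16 (adjusted p = 0.00845). Both calls were kept without each library in turn. The first was 0.25 with the length slope as a covariate (adjusted p = 0.449), and 0.39 with depth, which kept it. The second was 0.22 with depth (adjusted p = 0.259) and 0.48 with the GF_JAX libraries of positive slope alone (adjusted p = 0.0888). Haao overlaps the annotated gene Gm19260.

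At the branch, Acmsd, which diverts carbon away from NAD, varied most of the route genes, and Qprt, which keeps it, had group means of 209 to 234 RPKM. Acmsd had 8.29, 3.999, 15.03, 11.6 and 25.6 RPKM in GF_TAC and 10.5, 12.8, 16.8, 18.4 and 5.63 RPKM in GF_JAX. It had 20.6, 40.1, 20.7 and 24.3 RPKM in GF, 12.8, 23.6, 12.9 and 24.7 RPKM in TAC and 10.1, 5.53, 10.5 and 6.69 RPKM in JAX. GF_TAC libraries ran from the lowest value of all to above those of GF_JAX, all 4 GF libraries were above all GF_JAX and all JAX libraries, and all TAC libraries were above all JAX libraries. Acmsd rested on 18 to 324 reads per library, so its spread includes counting error. It was higher in GF than in JAX, with 26.4 ± 9.28 RPKM in GF and 8.196 ± 2.46 RPKM in JAX (SD, n = 4 each), by 1.56 ± 0.40 (limma, adjusted p = 0.0102). The call was kept without each library in turn and lost with the length slope as a covariate, where the difference was 1.73 (adjusted p = 0.069). Both recipient groups had lower means than GF, with differences of -1.14 ± 0.38 in GF_TAC (adjusted p = 0.371) and -1.03 ± 0.38 in GF_JAX (adjusted p = 0.197), and neither passed. Acmsd overlaps Gm35993 and 2900009J06Rik, the second of which has values of its own in the table.

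Qprt ranged over 201 to 217 RPKM in GF_TAC, 193 to 314 in GF_JAX, 204 to 239 in GF, 218 to 232 in TAC and 176 to 255 in JAX, and its differences passed in no comparison. The log2 ratio of Acmsd to Qprt (RPKM + 1 of each) averaged -4.13 ± 0.92 in GF_TAC, -4.16 ± 0.49 in GF_JAX, -3.08 ± 0.49 in GF, -3.58 ± 0.53 in TAC and -4.58 ± 0.22 in JAX (SD, n = 5, 5, 4, 4 and 4). In GF_JAX it was lower than in GF by a difference of -1.08 (exact permutation test, two-sided, p = 0.0159, adjusted p = 0.0762 over 8 comparisons). In TAC it was higher than in JAX by 0.99 and in GF higher than in JAX by 1.496, each with an exact permutation p of 0.0286, the smallest that 4 libraries against 4 allow, and an adjusted p of 0.0762. None of the 8 comparisons passed after adjustment.

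**Figure D4:**
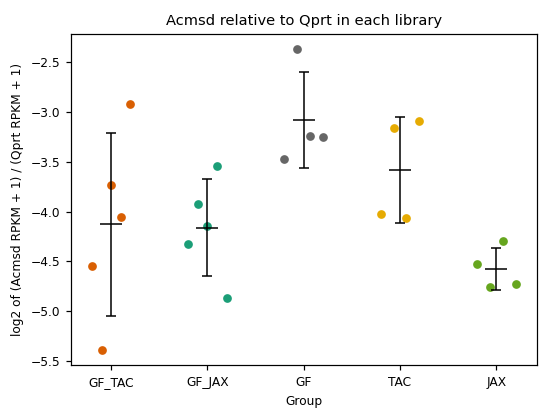
The log2 ratio of Acmsd to Qprt (y axis, RPKM + 1 of each gene) in every library by group, with mean and SD in black. The 4 GF libraries lie between -3.47 and -2.37 and the 4 JAX libraries between -4.76 and -4.29; GF_TAC runs from -5.39 to -2.92.

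Nadsyn1, the NAD synthetase, had donor differences opposite in sign to those of most route genes. Nadsyn1 had 26.1, 25.9, 27.9, 26.8 and 23.3 RPKM in GF_TAC and 22.7, 25.6, 21.2, 20.7 and 23.3 RPKM in GF_JAX. It had 20.9, 18.9, 19.4 and 18.6 RPKM in GF, 23.4, 18.4, 23.5 and 21.8 RPKM in TAC and 25.4, 24.1, 29.4 and 30.4 RPKM in JAX. The 4 JAX libraries were above all TAC and all GF libraries, and the 5 GF_TAC libraries were above all GF libraries. Nadsyn1 was lower in GF than in JAX, with 19.4 ± 1.01 RPKM in GF and 27.3 ± 3.07 RPKM in JAX (SD, n = 4 each), a difference of -0.47 ± 0.09 (limma, adjusted p = 0.0023). It passed in all 32 alternatives tried, between -0.68 and -0.41. It was higher in GF_TAC than in TAC by 0.25 ± 0.09 (limma, adjusted p = 0.0491). That call was lost without 15 of the 22 libraries (adjusted p up to 0.171, without TAC 2). It was kept without JAX 2, JAX 4, GF_JAX 2 to 5 or GF_TAC 5. It was also lost with no filter, TPM scaling, the length slope, depth, the replicate block and median-ratio scaling (adjusted p up to 0.267). GF_TAC minus GF was 0.40 ± 0.09 and did not pass (adjusted p = 0.082).

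The donor interaction of Nadsyn1 was 0.50 ± 0.13 (limma, adjusted p = 0.0491), made of 0.19 ± 0.08 in recipients and -0.31 ± 0.09 in vendor mice. It lay close to the threshold: it was lost without 17 of the 22 libraries, with an adjusted p of up to 0.117 (without JAX 4), and kept without JAX 2, TAC 1, GF_JAX 2, GF_JAX 5 or GF_TAC 5. It was 0.43 with depth as a covariate (adjusted p = 0.192). The call was lost there and with a pseudocount of 0.1, no filter, the replicate block, the start-position correction and median-ratio scaling. It was also lost without GF_JAX 1 and GF_JAX 4. Nadsyn1 rested on 69 to 247 reads per library.

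Nnmt, the nicotinamide methyltransferase, was the gene with most calls, 5 of 9 comparisons. Nnmt had 253, 303, 299, 317 and 285 RPKM in GF_TAC and 256, 352, 329, 294 and 532 RPKM in GF_JAX. It had 436, 331, 378 and 462 RPKM in GF, 327, 504, 388 and 433 RPKM in TAC and 239, 189.8, 224 and 246 RPKM in JAX. The JAX libraries were the lowest group, below all libraries of each other group, and GF_JAX 5 was the highest library of all. Nnmt was higher in TAC than in JAX, with 413 ± 74.6 RPKM in TAC and 225 ± 24.97 RPKM in JAX (SD, n = 4 each), a 1.82-fold level and a difference of 0.86 ± 0.17 (limma, adjusted p = 0.0268). The call was lost without TAC 2, 3 or 4 or JAX 1, 2, 3 or 4 (adjusted p up to 0.142, without TAC 2), with no filter (0.0518) and with depth as a covariate (0.71, adjusted p = 0.0743). The direction was the same in each of these.

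Nnmt was also higher in GF than in JAX, by 0.83 ± 0.17 (limma, adjusted p = 0.00283), a call kept without each library in turn but lost with the length slope (0.47, adjusted p = 0.16). In GF_JAX it was higher than in JAX by 0.61 ± 0.16 (adjusted p = 0.02); without JAX 2 the adjusted p was 0.0682, and with the GF_JAX libraries of positive slope alone the difference was 0.29 (adjusted p = 0.282). That call was also lost with depth as a covariate (0.33, adjusted p = 0.391) and with the length slope (0.42, adjusted p = 0.0653). In GF_TAC it was lower than in TAC, with a difference of -0.49 ± 0.16 (adjusted p = 0.037), and this call was lost without TAC 2, TAC 3, TAC 4, GF_TAC 1, GF_TAC 3 or GF_TAC 5 (adjusted p up to 0.115). The call was also lost with no filter. The length slope as a covariate moved that difference to -0.83.

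The donor interaction of Nnmt was -1.09 ± 0.23 (limma, adjusted p = 0.0182), from -0.23 ± 0.15 in GF_TAC minus GF_JAX and 0.86 ± 0.17 in TAC minus JAX. It was lost without TAC 2 (adjusted p = 0.0553) and with depth as a covariate (-0.74, adjusted p = 0.155). Adipose markers, whose tissue also expresses Nnmt, summed to 45.02 to 107 RPKM in GF_TAC, 30.9 to 88.4 in GF_JAX, 41.8 to 89.96 in GF, 51.4 to 145 in TAC and 132 to 145 in JAX over 5 genes. Of that sum, Cidec, a lipid droplet gene, had 21.97 to 66.4 RPKM in TAC and 103 to 113 RPKM in JAX. Adipoq, the adiponectin gene, had at most 5.83 RPKM in TAC and 0.39 in JAX, Plin1 at most 2.17 in TAC and 0.17 in JAX, and Fabp4 22.4 to 70.8 in TAC and 28.6 to 37.3 in JAX. Adipoq, Plin1 and Lep were at 0 in all 4 GF libraries. The part of adipose RNA in the level of Nnmt was not tested.

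For the abundant genes of the route, reads per base are given beside those of the most abundant liver genes. Alb, Apoa1 and Apoe, the secreted proteins with the most RNA in liver, had reads at 86.9% to 96.6% of 2 per base in every library, that is 1 read per start position and strand. Their reads per kilobase varied by 1.55% to 2.13% (coefficient of variation over the 22 libraries) while their RPKM varied by 29.0% to 29.9%. Among the route genes, Tdo2 lay at 37.3% to 67.9% of that ceiling, Haao at 35.004% to 70.7% and Nnmt at 21.3% to 58.7%. Kmo stayed at 11.9% to 28.4% and Nadsyn1 at 1.31% to 4.69%. Whether reads with the same start were removed is not given in the sources used here, and the start-position correction takes 1 read per position as the rule.

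**Figure D5:**
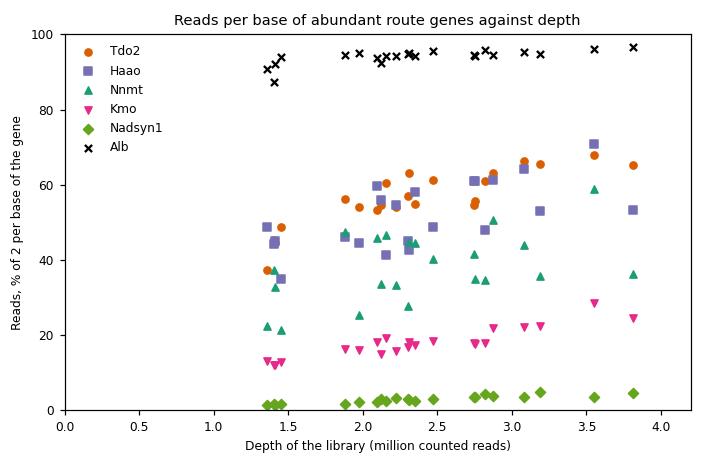
Reads of 5 route genes and of Alb (y axis, percent of 2 reads per base of the gene) against the depth of the library (x axis, M counted reads), 1 point per library and gene. Alb lies above 87% at every depth, Tdo2 runs from 37.3% to 67.9%, and Nadsyn1 stays below 5%.

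Around the route, genes of 8 lists were counted the same way. None of their 74 tested genes passed (limma) between the recipients, between the vendor groups or between recipients and GF. At an unadjusted p under 0.05 there were 18 in GF_TAC minus GF_JAX (13.3% of all genes), 14 in TAC minus JAX (8.99%), 12 in GF_JAX minus GF (15.9%) and 9 in GF_TAC minus GF (8.49%).

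The salvage, Preiss-Handler and NADP list (13 tested genes) passed in 6 genes in GF minus JAX, 5 lower and 1 higher (24% of all genes), and in 5 in GF minus TAC, 4 lower and 1 higher (24.3%). In GF_JAX minus JAX 1 was lower (13.4%), and in GF_TAC minus TAC 3 were lower (23.8%). Nampt, the rate-limiting enzyme of nicotinamide salvage, had 13.7, 11.7, 10.4 and 12.3 RPKM in GF, 17.3, 18.3, 18.5 and 18.7 RPKM in TAC and 20.8, 22.7, 21.2 and 22.7 RPKM in JAX. The GF libraries were all below the TAC and JAX libraries, with differences of -0.82 ± 0.19 against JAX (limma, adjusted p = 0.00563) and -0.57 ± 0.19 against TAC (adjusted p = 0.0342). In GF_JAX, Nampt had 20.7 and 23.1 RPKM in libraries 1 and 4, whose length slope is above 0. It had 13.95, 9.05 and 13.9 RPKM in GF_JAX 2, 3 and 5, whose slope is below 0. In GF_TAC it had 15.2, 13.1, 12.8, 13.7 and 20.1 RPKM. The part of library type in the level of Nampt was not tested. The NAD kinases Nadk and Nadk2 and the NADH diphosphatase Nudt12 were lower in GF than in JAX (-0.28, -0.84 and -0.99) and than in TAC, and in GF_TAC than in TAC. Nmrk1, a nicotinamide riboside kinase, was lower in GF and in GF_JAX than in JAX (-0.68 and -0.61), and Pnp, the purine nucleoside phosphorylase, was higher in GF than in JAX and TAC (0.44 and 0.36). Naprt1, which starts the Preiss-Handler route, and Nmnat1, which adds the adenylate, passed in none. The median of the list was -0.27 in GF minus JAX, -0.06 in GF minus TAC, -0.13 in GF_JAX minus JAX and -0.07 in GF_TAC minus TAC, beside 0.01, 0.02, -0.02 and 0.03 over all genes. No gene of the list passed in the donor interaction.

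The side branches of tryptophan (10 tested genes) passed in 2 members in GF minus JAX (24% of all genes), 1 in GF minus TAC (24.3%), 4 in GF_JAX minus JAX (13.4%) and 2 in GF_TAC minus TAC (23.8%). Ccbl1, a kynurenine aminotransferase, was higher in GF than in JAX, in GF_JAX than in JAX and in GF_TAC than in TAC (0.45, 0.82 and 0.45), and Ccbl2, another, in GF_JAX than in JAX (0.64). Maoa, a monoamine oxidase, was lower in GF and GF_JAX than in JAX, and Maob in GF and GF_TAC than in TAC. Gcdh, of the glutaryl-CoA pathway into which the Acmsd branch drains, was higher in GF_JAX than in JAX (0.44). Aadat, a kynurenine aminotransferase with 88.99 RPKM in GF_TAC and 91.2 RPKM in JAX, and Aldh8a1, a dehydrogenase that follows Acmsd, passed in none. Of the tryptophan transport list (6 tested), Slc7a8 was higher in GF_JAX than in JAX (0.76), and in GF_TAC minus TAC Slc43a2 was higher and Slc16a10 lower (0.50 and -0.46).

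Of the nicotinamide disposal and methyl donor list (6 tested), Aox3, Cyp2e1 and Gnmt were higher in GF_JAX than in JAX (13.4% of all genes) and Mat1a was lower in GF_TAC than in TAC (23.8%). Aox3, one of the aldehyde oxidases, which oxidise the methylnicotinamide that Nnmt makes, had 120.3, 116, 120.02, 113 and 94.7 RPKM in GF_TAC and 197, 116, 175, 212 and 121 RPKM in GF_JAX. It had 126, 149, 147 and 103 RPKM in TAC and 75.2, 111, 83.3 and 90.9 RPKM in JAX. Both pairs of groups overlapped, and the donor interaction was -1.04 ± 0.24 (limma, adjusted p = 0.0312). NAD consumers (15 tested) passed for Sirt4 in GF minus JAX (24% of all genes) and Sirt7 and Tnks in GF minus TAC (24.3%). In GF_TAC minus TAC they passed for Sirt7, Parp2 and Tnks (23.8%). Tnks was lower and the others were higher. Of the vitamin B6 and FAD supply (4 tested), which serves Kynu and Kmo, Pdxk was lower in GF than in JAX (24% of all genes).

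The glucocorticoid and fasting list (14 tested genes), which holds known controls of Tdo2, had no gene that passed between the recipients or between the vendor groups. All 14 had a difference below 0 in GF_TAC minus GF_JAX, and 10 of 14 had one above 0 in TAC minus JAX. In the donor interaction 4 of the 14 genes passed, all lower (1.48% of all genes passed): Tat (-1.07 ± 0.20, limma, adjusted p = 0.00722), Pck1 (-0.87), Tsc22d3 (-0.67) and Hnf4a (-0.74). Tat, the tyrosine aminotransferase, had 403, 356, 421, 461 and 378 RPKM in GF_TAC and 576, 466, 667, 734 and 680.5 RPKM in GF_JAX. It had 478, 648, 582 and 574 RPKM in TAC and 455, 349, 447 and 409.6 RPKM in JAX. GF_TAC libraries were all below GF_JAX, and TAC libraries all above JAX, as for Kmo. Reads of Tat lay at 44.9% (GF 4) to 73.6% (GF 2) of 2 per base, where those of Kmo lay at 11.9% to 28.4%. The part of depth in the differences of Tat was not tested.

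In the other comparisons of that list, Tsc22d3 was higher and Ppara lower in GF than in JAX (24% of all genes passed), and Hnf4a and Ppara were lower in GF than in TAC (24.3%). Tat, Pck1, Tsc22d3 and Dusp1 were higher in GF_JAX than in JAX (13.4%), and Tat, Per1 and Hnf4a lower in GF_TAC than in TAC (23.8%). The AHR list (6 tested genes), whose receptor binds kynurenine and microbial indoles, had 3 members, Cyp1a1, Cyp1a2 and Nqo1, that were higher in GF minus JAX (24% of all genes passed), in GF minus TAC (24.3%) and in GF_TAC minus TAC (23.8%). In GF_JAX minus JAX 2 were higher, Cyp1a1 and Cyp1a2 (13.4%). Cyp1a2, a liver cytochrome, averaged 437 RPKM in GF_TAC, 528 in GF_JAX, 463 in GF, 266 in TAC and 220.1 in JAX, with differences of 0.71 in GF_TAC minus TAC and 1.23 in GF_JAX minus JAX. No gene of the AHR list passed in the donor interaction.

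Markers of other cells were counted in the same comparisons. Kupffer cell and macrophage markers summed to 74.7 to 137 RPKM in GF_TAC, 105 to 145 in GF_JAX, 99.3 to 124 in GF, 60.6 to 115 in TAC and 54.0 to 115 in JAX over 8 genes. Of the 8, 4 passed as higher in GF minus JAX (Clec4f, Vsig4, Csf1r and Timd4, beside 24% of all genes) and 1 in GF minus TAC (24.3%). In GF_JAX minus JAX 3 passed as higher (13.4%), and in GF_TAC minus TAC 3 (23.8%). The shares of all genes count either direction. Sinusoidal endothelium summed to 92.2 to 149 RPKM in recipients and GF and to 97.1 to 136 in TAC and JAX over 6 genes, and stellate cells and fibroblasts to 99.7 to 147 and 84.6 to 112 over 6. Cholangiocyte markers summed to 33.1 to 104 RPKM, B and plasma cell markers to 1.74 to 35.0, neutrophil markers to 0 to 16.1 and gut epithelium markers to 110.2 to 205 over all libraries. Of the gut epithelium sum, Fabp2 made up 107 to 203 RPKM, while Lgr5 had at most 2.89, Vil1 at most 0.82 and Muc2 at most 0.065. Immediate early and heat shock genes, signs of RNA handling, summed to 194 to 333 RPKM over 8 genes. Of these, Ier2 was higher and Jun, Hspa1a and Hspa1b lower in GF minus JAX (24% of all genes passed). Ier2 was higher and Hspa1b lower in GF minus TAC (24.3%) and in GF_TAC minus TAC (23.8%). Egr1, Hspa1a and Hspa1b were lower in GF_JAX minus JAX (13.4%). The part of these genes in the differences of the route was not tested.

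Across the 22 libraries, which share the groups, depth and library type named above, the route genes did not vary as a block. Pearson's r of log2(RPKM + 1) was 0.76 between Tdo2 and Kmo, 0.67 between Kmo and Nnmt, 0.64 between Tdo2 and Haao, and -0.71 between Kmo and Nadsyn1. Nadsyn1 had r below 0 with 8 of the other 9 genes, and Afmid and Kynu had r = -0.66. Among all other tested genes, the 3 most like Tdo2 were Pck1, a gluconeogenic carboxykinase (r = 0.97), Igfbp4 (0.96) and Lamp2 (0.96). For Kmo they were Cyp2c67 (0.87), Tat (0.86) and Crp (0.85), for Haao Pemt (0.99), Pcbd1 (0.98) and Rpl36al (0.98), and for Nnmt Psmd7 (0.85), Saa1 (0.85) and Cltb (0.85). Acmsd had the weakest likeness, with Scpep1 first (0.70), and the first for Nadsyn1 was Fibp (0.76), for Afmid Kri1 (0.86), for Kynu Ctdsp1 (0.84) and for Ido2 Slc46a3 (0.85).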

How the data were processed

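Poly(A) RNA of mouse liver was sequenced in 22 libraries (Trizol, NEBNext poly(A) beads and a ThruPLEX kit, per the labels' protocols). The authors deposited RPKM values in 1 table. Bowtie 1.0.0, Cuffdiff 2.1.1 and the build mm9 were used, per the submitters' processing notes; annotation, strand, read filters and duplicate removal are not given in the sources used here. Left out were 461 entries without a name and 27 entries whose names had become date numbers. The genes and lists were chosen with earlier results of these data known.

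RPKM are not counts, so no count test was used. Relative depths came from the commonest ratio of values under 1 RPKM between each library and JAX 1. Scaled by them, values moved in whole-read steps in 78.2% of 5350 genes (within 0.1 reads). With transcript lengths of GENCODE M21 these steps gave 2.305 M reads for JAX 1 (quartiles 2.09 and 2.40). Reads of 9 of the 10 genes were whole within 0.01 reads; those of Kynu were not recovered. Intervals of counting error were not used, since depth and the spread between libraries set the precision. Length slopes used 7530 genes with a mean RPKM of 5 to 300. The start-position correction converts reads to the number expected before 1 read per position and strand is kept, with a limit of 0.95 of all positions that no route gene reached.

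Values were analysed as log2(RPKM + 1) for the 12264 genes that reached 1 RPKM in 4 or more libraries. One linear model of the 5 groups was used (R 4.3.3, limma 3.58.1 with its trend option, no covariate). P-values were two-sided and adjusted by Benjamini and Hochberg's method across the 12264 genes, with calls at 0.05. The fit was tested on simulated data. The ratio of Acmsd to Qprt was tested by exact permutation. Alternatives were a pseudocount of 0.1, no filter, TPM scaling, length slope or depth as a covariate, a replicate block, the start-position correction, and libraries left out; median-ratio scaling and leaving out GF_JAX 2, 3 and 5 were added after seeing the data. All 10 route genes and 9 others were named whatever their result, with list members that passed and, for each route gene, up to 3 genes of highest r; the one for Qprt is not reported here. The pathway lists were tryptophan side branches, tryptophan transport, NAD salvage with the Preiss-Handler route and NADP, NAD consumers, nicotinamide disposal and methyl donor, vitamin B6 and FAD supply, glucocorticoid and fasting control, and AHR. RefSeq served for promoters and overlaps. Tables and figures were made in Python 3.11.15 (pandas 2.3.3, numpy 2.4.6, matplotlib 3.10.9, scipy 1.17.1).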

Additional observations from a re-analysis of the deposited data

Results flagged for a closer look

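In 4 of 95 groups of 4 or 5 libraries, 1 library stood far from the others, where chance gives about 1 in 20. GF_TAC 2 had 132 RPKM of Afmid, against 162 to 173 in the other GF_TAC libraries. GF 1 had 174 RPKM of Afmid, against 149 to 150.3 in the other GF libraries. GF 2 had 83.7 RPKM of Ccbl2, a kynurenine aminotransferase, against 125 to 130.4 in the other GF libraries. GF_TAC 5 had 94.7 RPKM of Aox3, against 113 to 120.3 in the other GF_TAC libraries.

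The difference between TAC and JAX was not the same in recipients as in vendor mice for 8 of the genes named, by the interaction term of limma. Recipients minus vendor mice, it was -1.09 for Nnmt, -1.07 for Tat, -1.04 for Aox3, -0.87 for Pck1, -0.74 for Hnf4a, -0.67 for Tsc22d3, -0.58 for Kmo and 0.50 for Nadsyn1. The 8 were 3 of the 10 route genes and 5 of the 74 tested list genes, where 1.48% of all genes passed. With depth as a covariate none of the route genes passed. Values of the list genes with depth are not given here.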

How the results depend on the processing

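Of 46 differences of route genes with an unadjusted p under 0.05, 1472 values were computed under the alternatives, of which 1298 kept direction and side of the threshold, 133 lost the call, 39 gained one and 2 changed sign. The 2 were Haao in GF minus TAC, -0.0797 with the length slope, and Haao in the donor interaction, 0.0877 with depth as a covariate. The cause was not tested.

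The number of route genes that passed changed by more than 1.5 times, or from or to 0, as follows. Brackets give the genes that passed in the same setting, of all genes tested there. TAC minus JAX had 0 with no filter (27 of 17363 genes) and 0 with depth (32 of 12264), against 1. With the length slope GF_TAC minus GF_JAX had 1 (61 of 12264) and GF_TAC minus GF 1 (47 of 12264), against 0. Without GF_JAX 2, 3 and 5 GF_TAC minus GF_JAX had 2 (3033 of 12146), against 0. There GF_JAX minus GF had 1 (3453 of 12146) and GF_TAC minus GF 1 (53 of 12146), against 0. GF minus JAX had 1 with the length slope (458 of 12264), against 5. GF minus TAC, with 0, had 2 with depth (3620 of 12264) and 1 with the replicate block (2640 of 12264). It had 2 with the start-position correction (3357 of 12265) and 2 without GF_JAX 1 and GF_JAX 4 (4060 of 12195). Without GF_JAX 2, 3 and 5 it had 2 (4371 of 12146). GF_JAX minus JAX, with 5, had 3 with TPM scaling (2441 of 13007) and 3 with the length slope (1152 of 12264). It had 0 with depth (320 of 12264) and 2 without GF_JAX 2, 3 and 5 (869 of 12146). GF_TAC minus TAC, with 6, had 1 with the length slope (471 of 12264) and 3 with the replicate block (2096 of 12264). The donor interaction, with 3, had 5 with the length slope (675 of 12264) and 0 with depth (102 of 12264). It had 5 without GF_JAX 2, 3 and 5 (2566 of 12146). Smaller changes were 4 for GF minus JAX with TPM scaling (3062 of 13007) and with depth (1541 of 12264). GF_JAX minus JAX had 4 with no filter (1340 of 17363) and with the start-position correction (1541 of 12265). GF_TAC minus TAC had 4 to 8, with 8 under the start-position correction (3121 of 12265). The interaction had 2 with a pseudocount of 0.1 (171 of 12264), no filter (137 of 17363) and the start-position correction (144 of 12265). It also had 2 with median-ratio scaling (183 of 12253) and without GF_JAX 1 and GF_JAX 4 (205 of 12195). Leaving out each library in turn gave 0 to 1 for TAC minus JAX, 0 to 1 for GF_TAC minus GF_JAX, 4 to 5 for GF minus JAX, 0 to 2 for GF minus TAC, 3 to 6 for GF_JAX minus JAX, 1 to 6 for GF_TAC minus TAC and 1 to 4 for the interaction. The Acmsd to Qprt ratio in GF_TAC minus GF_JAX, 0.03, ran from -0.27 to 0.35.

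Over all genes, calls were highest without GF_JAX 2, 3 and 5 in each comparison but GF_JAX minus JAX. That setting leaves only GF_JAX libraries with a length slope above 0, so GF_JAX differs from GF_TAC and GF in library type as well. They ranged from 16 (without JAX 4) to 90 for TAC minus JAX, with 36 as deposited; 5 (without GF_TAC 3) to 3033 for GF_TAC minus GF_JAX, with 21; 6 (without GF 1) to 3453 for GF_JAX minus GF, with 75; 6 (without GF 4) to 53 for GF_TAC minus GF, with 25; and 90 (without JAX 4) to 2566 for the interaction, with 182. They ranged from 458 to 4350 for GF minus JAX (2939), 138 to 4371 for GF minus TAC (2977) and 471 to 4129 for GF_TAC minus TAC (2924), lowest with the length slope, and from 320 (depth) to 4240 (without GF_JAX 1 and GF_JAX 4) for GF_JAX minus JAX (1638). The fit takes 1 spread per gene from all 5 groups, so leaving out GF_JAX libraries also moved calls in comparisons without GF_JAX. Without GF_JAX 1 and GF_JAX 4, for example, TAC minus JAX had 62 and GF minus TAC 4060. TPM scaling moved the median of all genes to -0.17 in GF minus JAX, -0.21 in GF_JAX minus JAX and 0.19 in the interaction. It moved the higher and lower calls to 556 and 2506 in GF minus JAX (1430 and 1509 as deposited), 808 and 1643 in GF minus TAC (1362 and 1615), 466 and 1975 in GF_JAX minus JAX (904 and 734), 199 and 65 in the interaction (59 and 123), 23 and 8 in GF_TAC minus GF_JAX (7 and 14) and 17 and 19 in TAC minus JAX (22 and 14).

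Deviations from the group means correlated between -0.12 and 0.15 over 33 pairs of same-numbered libraries, 5 of them over 0.1. Pairs with different numbers were not correlated for reference, so these values do not decide whether same-numbered libraries share a source. The labels state none. Of the route genes, Acmsd and Nadsyn1 rest on the fewest reads, and Tdo2, Haao and Nnmt lie nearest to 2 reads per base. Kynu was not compared.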
